A study of Danio rerio with 6 samples.

Results

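The genes of mitochondrial oxidative phosphorylation were taken from RNA-seq of dissected zebrafish heads by name: every listed gene whose name starts with *nduf*, *uqcr* or *atp5*, the cytochrome c oxidase subunits *cox4* to *cox8*, the succinate dehydrogenase genes *sdha*, *sdhb*, *sdhc*, *sdhda* and *sdhdb*, and the protein genes of the mitochondrial genome (*mt-nd*, *mt-co*, *mt-cyb* and *mt-atp*). Names were matched without regard to case, since 4 of the genes are listed in capitals. This gave 115 of the 32520 listed genes, 102 of them encoded in the nucleus and 13 in the mitochondrial genome. Complex I holds 56 of them, complex II 5, complex III 9, complex IV 24 and complex V 21. The samples were 3 of wild-type larvae (wt) and 3 of *tulp1*-dKO larvae, which lack both *tulp1a* and *tulp1b*, all of the AB strain and taken at 4 days post-fertilization (dpf). Wild-type larvae carry neither mutation, and the labels name no treatment. The double knockout came from crossing 1 *tulp1a* line with 1 *tulp1b* line, each made with CRISPR/Cas9 and carrying a frameshift, so each gene is represented by a single mutant allele. The number of heads in each library is not given in the sources used here.

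Oxidative phosphorylation is a main source of ATP in neurons, photoreceptors included. NADH dehydrogenase (complex I) and succinate dehydrogenase (complex II) pass electrons through coenzyme Q to the cytochrome bc1 complex (complex III), and cytochrome c carries them on to cytochrome c oxidase (complex IV), where oxygen is reduced. Complexes I, III and IV pump protons across the inner mitochondrial membrane, and the ATP synthase (complex V) uses their return flow. All complexes but II combine subunits of both genomes, and zebrafish keep duplicated copies of many of the nuclear subunit genes. Photoreceptors pack mitochondria densely into the inner segment, next to the outer segment that holds the opsins.

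Oxidative phosphorylation genes differed little between the groups, and the few that fell were single nuclear-encoded subunits. *ndufs8b*, an iron-sulfur subunit copy of complex I, fell most, from 6.45 ± 0.416 to 1.39 ± 0.194 TPM (TPM, a unit of mRNA level corrected for gene length and for the total of the library, mean ± SD, n = 3 samples in each group here and throughout). *NDUFB1* of complex I fell by 47.3%, one of the *COX5B* genes of complex IV by 41.1% and *cox6b2* of complex IV by 26.0%. No other member passed the test, and none passed it in the higher direction. These 4 are 3.54% of the 113 members tested, against 1.89% of all 22824 genes tested (1.22% of all genes were lower and 0.67% higher) and 3.76% of the 1089 other genes averaging 100 TPM or more. The values were tested with limma as log2(TPM + 0.1) over every gene whose mean reached 0.5 TPM, p-values were adjusted over all of these by the Benjamini-Hochberg method, and an adjusted p of 0.05 or less was called a change. With a fold change of at least 2 required as well, 1 member remained (*ndufs8b*), against 1.32% of all genes, 0.96% lower and 0.364% higher. The count of 4 was 2 without wt sample 1 and 3 without *tulp1*-dKO sample 1. It was 1 on leaving out any single one of the remaining samples. The count was also 1 without the trend in limma, and 1 with the sample number as a block in the model. *ndufs8b* was among the calls each time. With same-named entries summed the count was 3, without *COX5B*. The heads hold many cell types, and photoreceptors were not measured apart from the rest, so a level here is that of the whole head. Fewer cells of a type and less RNA per cell cannot be told apart in such samples.

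The spread of fold changes was narrow. The members had a median log2 fold change of −0.02 (quartiles −0.10 and 0.03), and that of all genes tested was 0.05 (quartiles −0.13 and 0.23). Of the members, 100 of 113 (88.5%) had a log2 fold change of at most 0.25 in size, against 60.7% of all genes and 80.3% of the other genes above 100 TPM. Of the members, 37 were higher and 76 lower in *tulp1*-dKO larvae (32.7% higher), while 58.1% of all genes and 53.3% of the other genes above 100 TPM were higher. This difference was not tested. The split among the members moved with scale and samples: 32 nuclear members were higher here, 22 with median ratio scaling, and 26 to 42 on leaving out 1 sample at a time. Median ratio scaling moved all genes as well: their median log2 fold change went from 0.051 to 0.004. That of the nuclear members went from −0.035 to −0.081, so they stayed below all genes. The wt and *tulp1*-dKO samples were fully separated for 24 members (21.2%), 17 with *tulp1*-dKO below wt and 7 above. Over all genes this share was 23.5%, with 8.86% below and 14.6% above. At an unadjusted p of at most 0.05 from limma, 2 members were higher and 11 lower (11.5% in all), against 17.1% of all genes, 10.1% higher and 6.97% lower.

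**Figure D1:**
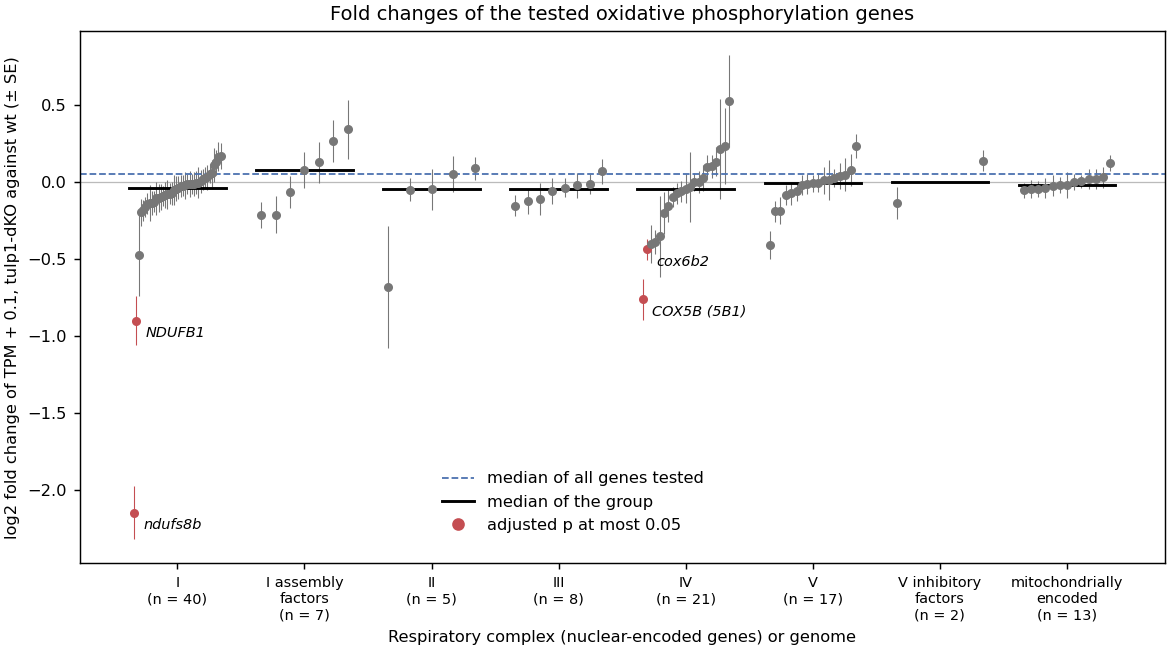
Log2 fold change (TPM + 0.1, tulp1-dKO against wt, 3 samples each) of the 113 tested members, ordered within each group; bars are the SE from limma, black lines the group medians, the dashed line the median of all genes tested, and red points have an adjusted p of at most 0.05. Most points lie within 0.25 of 0, and the 4 red points, ndufs8b, NDUFB1, COX5B (5B1) and cox6b2, lie below the rest of their complexes or near their lower end.

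Before the members, the samples were checked as a whole. The listed genes summed to between 945666 and 948860 TPM in each sample, and the members made up 10.3% ± 0.159 of this total in wt and 10.23% ± 0.388 in *tulp1*-dKO larvae. *tulp1a* was at 25.3, 24.98 and 23.7 TPM in wt larvae and at 16.0, 14.4 and 15.8 TPM in *tulp1*-dKO larvae, and *tulp1b* at 13.1, 11.9 and 9.77 TPM against 2.71, 2.01 and 2.37 TPM, so both were lower in the samples labelled as knockouts. Of 35 rod and cone genes, 20 fell and none rose, and their summed level was 20023 to 20361 TPM in wt larvae and 4167 to 7465 TPM in *tulp1*-dKO larvae, with no gene of the list at 0 throughout. Of 29 skeletal muscle genes, 2 rose and none fell, with sums of 13824 to 14597 and 15352 to 16910 TPM. Of 15 neuron genes 11 were lower and none passed the test (2020 to 2255 and 1877 to 2179 TPM). Of 12 liver genes 8 were lower and none passed the test (3378 to 4754 and 2255 to 5711 TPM). All 10 erythrocyte genes were lower, none past the test, at 5148 to 7699 and 4967 to 6077 TPM. Of 13 ionocyte genes 8 were higher and none passed the test (723 to 743 and 641 to 759 TPM). Of 8 heart muscle genes, 1 fell (*actc1a*, at 18.02, 19.1 and 18.9 TPM in wt larvae and listed at 0, 1.75 and 0.35 TPM in *tulp1*-dKO larvae). In that list 3 genes were higher and 5 lower, and the sums overlapped (420 to 457 and 385 to 509 TPM). Of all genes tested, 1.22% fell and 0.67% rose. The part of these markers in the results below was not tested.

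The 13 protein genes of the mitochondrial genome made up 7.43% ± 0.154 of the TPM in wt larvae and 7.46% ± 0.284 in *tulp1*-dKO larvae. They summed to 70575, 68728 and 71667 TPM in wt larvae 1 to 3 and to 69612, 73843 and 68561 TPM in *tulp1*-dKO larvae 1 to 3, and the groups overlapped. None of the 13 passed the test, 5 were higher and 8 lower, and their log2 fold changes ran from −0.06 to 0.13 with a median of −0.02. With median ratio scaling of the samples 1 of the 13 was higher, so the split between higher and lower depends on the scale. Levels spanned more than a factor of 10, from 15388 ± 838 TPM for *mt-atp8* to 1212 ± 78.4 TPM for *mt-nd5* in wt. The 3 oxidase subunits were among the highest, with *mt-co2* at 10946 ± 583, *mt-co1* at 9762 ± 231 and *mt-co3* at 8305 ± 264 TPM.

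*mt-co1*, the catalytic subunit of complex IV, stood at the upper end. It was at 9837, 9946 and 9503 TPM in wt larvae and at 10786, 11113 and 10077 TPM in *tulp1*-dKO larvae, and every *tulp1*-dKO sample was above every wt sample. The difference was 9.19%, a log2 fold change of 0.13 (SE 0.05, 95% confidence interval 0.003 to 0.25), which did not pass the adjustment over all genes (limma adjusted p = 0.278). Its neighbours in the same complex did not share this pattern: *mt-co2* had a log2 fold change of 0.02 (SE 0.06) and *mt-co3* of −0.002 (SE 0.05), both with overlapping groups. At the lower end was *mt-nd4*, a proton-pumping subunit of complex I, at 1766, 1729 and 1777 TPM in wt larvae and at 1674, 1672.5 and 1727 TPM in *tulp1*-dKO larvae. These groups also did not overlap, although the difference was small (log2 fold change −0.06, SE 0.05, limma adjusted p = 0.615). Such separation was no more frequent here than elsewhere: it held for 15.4% of the 13 genes and for 23.5% of all genes tested. The other 6 complex I genes had log2 fold changes of −0.05 to 0.03, the bc1 gene *mt-cyb* of −0.04 (SE 0.07), and the ATP synthase genes *mt-atp6* and *mt-atp8* of −0.04 (SE 0.05) and −0.02 (SE 0.07). The neighbouring pairs *mt-atp8* and *mt-atp6*, and *mt-nd4l* and *mt-nd4*, overlap in the genome, and *mt-nd6* lies on the opposite strand, so the division of reads among these genes is uncertain.

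**Figure D2:**
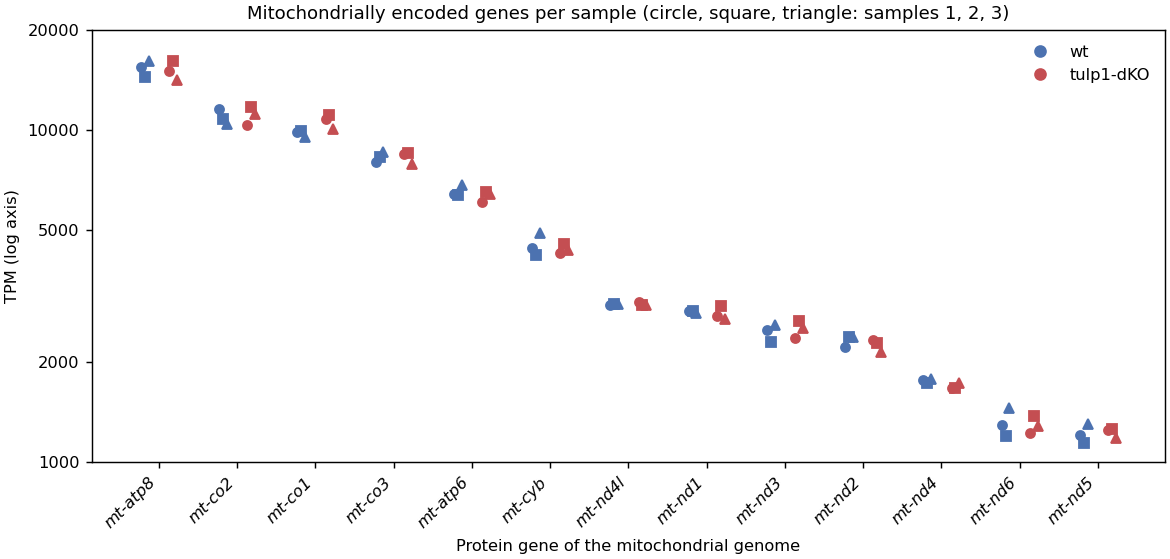
TPM (log axis) of the 13 protein genes of the mitochondrial genome in each of the 3 wt and 3 tulp1-dKO samples, ordered by the wt mean. The levels fall from 15388 TPM for mt-atp8 to 1212 TPM for mt-nd5 in wt, and the groups overlap for all genes but mt-co1 (tulp1-dKO above) and mt-nd4 (tulp1-dKO below). These are 15.4% of the 13 genes, against 23.5% of all genes tested.

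In complex I, 2 of the 40 nuclear subunits tested fell (5%, against 1.89% called of all genes), and the other 38 did not pass the test. *ndufs8b* (ENSDARG00000057055) encodes a copy of the core subunit that holds iron-sulfur clusters on the way from NADH to coenzyme Q. It was at 6.91, 6.34 and 6.10 TPM in wt larvae and at 1.29, 1.61 and 1.26 TPM in *tulp1*-dKO larvae. All 3 *tulp1*-dKO samples were far below the lowest wt sample, with a log2 fold change of −2.15 (SE 0.17, 95% confidence interval −2.55 to −1.74, limma adjusted p = 0.00244). The call held in all 18 alternative analyses, with adjusted p from limma between 0.00204 and 0.0260. Its duplicate *ndufs8a*, which encodes most of the mRNA for this subunit, was at 153, 153 and 147 TPM in wt larvae and at 146, 150 and 153 TPM in *tulp1*-dKO larvae (log2 fold change −0.01, SE 0.06). *ndufs8b* therefore made up 4.09% ± 0.190 of the summed mRNA level of both copies in wt and 0.919% ± 0.125 in *tulp1*-dKO larvae. Rod and cone markers also fell in the same 3 samples, and any relation of *ndufs8b* to them was not tested.

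*NDUFB1* (ENSDARG00000087456) encodes a small accessory subunit of the membrane arm. It was at 166, 262 and 210.1 TPM in wt larvae and at 106, 112 and 117 TPM in *tulp1*-dKO larvae, and the wt samples varied far more than the *tulp1*-dKO samples. The log2 fold change was −0.90 (SE 0.16, limma adjusted p = 0.0423). Its adjusted p from limma was 0.0757 and 0.0924 without wt samples 2 and 3, and 0.115, 0.148 and 0.0951 without *tulp1*-dKO samples 1, 2 and 3. Without wt sample 1 it passed, at a log2 fold change of −1.07.

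The remaining nuclear subunits of complex I had a narrow range. Over the 40 tested, the median log2 fold change was −0.04, 10 were higher and 30 lower, and 37 (92.5%) lay within 0.25 of 0. Of the core subunits, which carry out electron transfer, *ndufs1* was at 118 ± 4.52 TPM in wt larvae and 129 ± 9.54 in *tulp1*-dKO larvae, and *ndufv1*, the NADH-binding subunit, at 187 ± 28.7 and 169 ± 3.15. Of the accessory subunits, *ndufb5* was lower without overlap, at 159, 149.6 and 160.4 TPM against 134, 143 and 136 TPM (log2 fold change −0.18, SE 0.07, limma adjusted p = 0.232). *ndufa1*, an accessory subunit of the membrane arm that assembly requires in mammals, was at 373 ± 35.0 and 325 ± 18.4 TPM (limma adjusted p = 0.321). *ndufb9*, the most abundant accessory subunit here, had a log2 fold change of 0.02 (SE 0.07). The 4 genes of the *ndufa4* family are counted here by name, although the mammalian NDUFA4 protein is found with complex IV. *ndufa4l* was the highest of all nuclear complex I genes, at 487 ± 12.5 TPM in wt larvae and 447 ± 30.3 in *tulp1*-dKO larvae, and *ndufa4* was at 208 ± 15.7 and 208 ± 22.6 TPM. *ndufa4l2a* was at 9.48, 7.27 and 8.44 TPM against 4.96, 4.70 and 9.16 TPM, with overlap, and *ndufa4l2b* and *ndufa9b*, at a mean below 0.5 TPM, were the members not tested.

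The 7 assembly factors of complex I (*ndufaf1* to *ndufaf7*), which help to build it without staying in it, had a median log2 fold change of 0.08, with 4 higher and 3 lower and none past the test. *ndufaf6* had the highest value, at 8.92, 10.3 and 12.6 TPM in wt larvae and 15.9, 14.0 and 10.6 TPM in *tulp1*-dKO larvae (log2 fold change 0.34, SE 0.19, limma adjusted p = 0.426).

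None of the 5 complex II genes passed the test, and all but *sdhda* lay within 0.25 of 0. The flavoprotein gene *sdha* was at 144, 160.2 and 111 TPM in wt larvae and 133, 132 and 131 TPM in *tulp1*-dKO larvae, so the wt samples alone spanned the *tulp1*-dKO samples. *sdhb*, the iron-sulfur subunit, was at 52.3 ± 7.44 and 53.8 ± 1.65 TPM, and the membrane anchor *sdhc* at 131 ± 7.46 and 126 ± 4.87 TPM. The other membrane anchor has 2 copies of unequal level. *sdhdb* was at 65.0, 62.1 and 66.8 TPM in wt larvae and at 67.9, 70.9 and 67.3 TPM in *tulp1*-dKO larvae (log2 fold change 0.09, SE 0.07, limma adjusted p = 0.608). *sdhda* was near the filter, at 1.36, 0.80 and 1.2 TPM against 0.43, 0.72 and 0.85 TPM (log2 fold change −0.68, SE 0.40, limma adjusted p = 0.440).

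In complex III, none of the 8 nuclear genes passed the test, 1 was higher and 7 lower, and all lay within 0.25 of 0. *uqcrb*, a small subunit near the coenzyme Q site, was the lowest, at 537, 542 and 510.5 TPM in wt larvae and 445, 508 and 479 TPM in *tulp1*-dKO larvae, without overlap (log2 fold change −0.15, SE 0.07, limma adjusted p = 0.325). *uqcr10*, another small subunit, was at 129 ± 5.08 and 120.3 ± 15.6 TPM, with overlap. The core protein gene *uqcrc2* has duplicates with opposite signs, *uqcrc2a* with a log2 fold change of −0.12 (SE 0.08) and *uqcrc2b* with 0.07 (SE 0.08). The most abundant of the 8, *uqcrq*, was at 567 ± 24.6 and 559 ± 48.7 TPM, and *uqcrh*, the acidic hinge protein, at 291 ± 5.69 and 283 ± 10.1 TPM. The Rieske iron-sulfur protein gene *uqcrfs1* was the lowest in level, at 56.6 ± 1.44 and 54.4 ± 4.14 TPM.

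In complex IV, 2 of the 21 nuclear subunits fell (9.52%) and none rose. The share called was 1.89% over all genes tested and 3.76% over the other genes averaging 100 TPM or more. With 21 genes, a share of this kind rests on single calls. *cox6b2* (ENSDARG00000037860) encodes a form of subunit 6B, which faces the intermembrane space, and its mammalian counterpart is known from testis. In these heads it was the more abundant form, at 584, 559 and 559 TPM in wt larvae, and at 389, 443 and 426 TPM in *tulp1*-dKO larvae. The wt samples lay close together and all *tulp1*-dKO samples were below them, with a log2 fold change of −0.44 (SE 0.07, limma adjusted p = 0.0299). *cox6b1*, the other form, was at 174, 173 and 193 TPM in wt larvae and at 184, 203 and 191 TPM in *tulp1*-dKO larvae (log2 fold change 0.10, SE 0.08), so the share of *cox6b2* in the pair was 75.9% ± 1.41 in wt and 68.6% ± 0.548 in *tulp1*-dKO larvae. The *cox6b2* call was lost without wt samples 1, 2 or 3 (adjusted p = 0.133, 0.0983 and 0.0687 from limma) and without *tulp1*-dKO samples 2 or 3 (0.0804 and 0.0682), while its log2 fold change stayed between −0.48 and −0.38.

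Subunit 5B, a zinc-binding subunit on the matrix side, is listed under the name *COX5B* for 2 entries with IDs of their own, and whether these are separate copies was not settled here. The gene described as 5B1 (ENSDARG00000113254) was at 83.6, 79.4 and 101 TPM in wt larvae and at 59.3, 45.3 and 50.9 TPM in *tulp1*-dKO larvae, without overlap. Its log2 fold change was −0.76 (SE 0.13, limma adjusted p = 0.0420). Without wt samples 1, 2 or 3 its adjusted p from limma was 0.133, 0.0878 and 0.0795, and without *tulp1*-dKO samples 2 or 3 it was 0.141 and 0.113. The far more abundant *COX5B* gene (zgc:86599, ENSDARG00000015978) was at 749, 819 and 729.9 TPM in wt larvae and at 801, 875 and 786 TPM in *tulp1*-dKO larvae, with a log2 fold change of 0.10 (SE 0.07). The share of 5B1 in the pair was 10.3% ± 1.68 in wt and 5.97% ± 0.990 in *tulp1*-dKO larvae. Reads may be divided unevenly between such similar entries, which was not measured here. Summed over both, the log2 fold change was 0.03 (limma adjusted p = 0.850), so the call was lost. *cox5b2* was at 7.13 ± 2.04 and 6.82 ± 0.955 TPM, and *cox5aa*, of the neighbouring subunit 5A, at 701 ± 45.5 and 701 ± 39.0 TPM.

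Subunit 4, the largest nuclear-encoded subunit, which joins the enzyme early in assembly, has 3 genes, all of them lower and none past the test. *cox4i1* (ENSDARG00000032970) was at 737, 707 and 683 TPM in wt larvae and at 496, 589 and 539 TPM in *tulp1*-dKO larvae, with every *tulp1*-dKO sample below every wt sample. It lay just outside the threshold, with a log2 fold change of −0.39 (SE 0.08, 95% confidence interval −0.58 to −0.21, limma adjusted p = 0.0603, 0.0546 to 0.208 over the alternatives). *cox4i2*, whose mammalian counterpart is known as the form of lung and of low oxygen, was at 78.0, 75.2 and 94.0 TPM against 58.9, 57.0 and 70.8 TPM, also without overlap (log2 fold change −0.40, SE 0.12, limma adjusted p = 0.167). *cox4i1l* was at 17.7, 22.5 and 17.8 TPM against 15.6, 18.8 and 16.0 TPM, with overlap. Summed over the 3 genes, subunit 4 was at 833, 804 and 795 TPM in wt larvae and at 570.0, 665 and 626 TPM in *tulp1*-dKO larvae, a mean difference of −23.5% without overlap, most of it from *cox4i1*. The share of *cox4i2* beside *cox4i1* was 10.4% ± 1.45 and 10.4% ± 1.42.

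The other complex IV subunits gave no call. *cox6c*, the highest nuclear gene of the complex, was at 966 ± 32.4 and 966 ± 32.9 TPM, *cox8a* at 928 ± 24.1 and 890 ± 56.5 TPM, and *cox6a1* at 739 ± 55.0 and 700.1 ± 7.60 TPM. The forms that mammals use in heart and skeletal muscle were at low levels and overlapped between the groups: *cox6a2* at 4.35, 8.42 and 7.78 against 5.14, 9.54 and 9.09 TPM, *cox7a1* at 5.31, 9.42 and 8.90 against 4.56, 6.75 and 6.88 TPM, and *cox8b* at 25.3, 32.1 and 26.6 against 22.5, 34.03 and 45.7 TPM. Their log2 fold changes were 0.21 (SE 0.32), −0.35 (SE 0.26) and 0.23 (SE 0.25). The 29 skeletal muscle markers had a median log2 fold change of 0.14. Their sums did not overlap (13824 to 14597 and 15352 to 16910 TPM), but a sum of many genes varies less than a single low gene. Any relation of these forms to the markers was not tested. *COX7A2* had the highest log2 fold change of all members, 0.52 (SE 0.30, limma adjusted p = 0.435). It was at 52.4, 70.9 and 62.1 TPM in wt larvae and at 53.9, 101 and 126 TPM in *tulp1*-dKO larvae, so 1 of the 3 *tulp1*-dKO samples was at the level of the lowest wt sample. Its abundant relative *cox7a2a* was at 506 ± 34.4 and 516 ± 41.0 TPM, and *cox7a2l*, which joins respiratory complexes into supercomplexes in mammals, at 120.4 ± 2.43 and 132 ± 15.1 TPM.

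**Figure D3:**
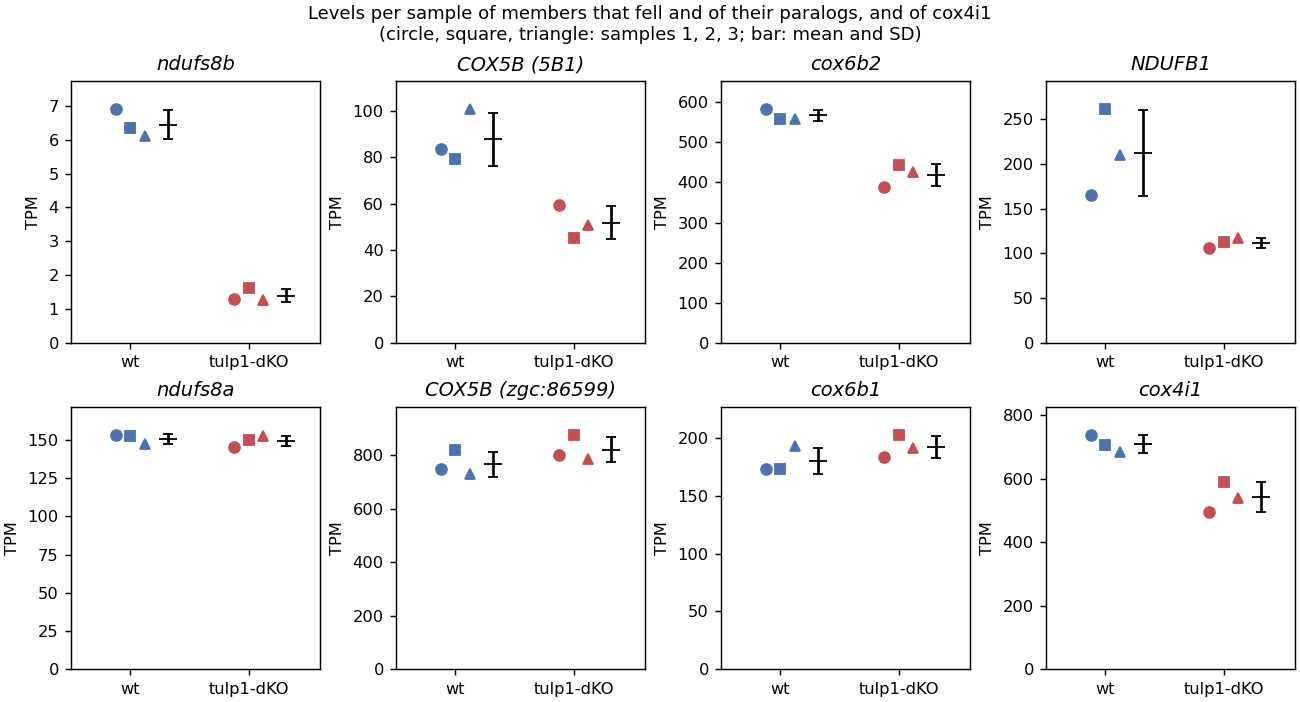
TPM in each sample (linear axes from 0) of the 4 members that fell, ndufs8b, COX5B (5B1), cox6b2 and NDUFB1 (upper row), and of the paralogs ndufs8a, COX5B (zgc:86599) and cox6b1 and of cox4i1 (lower row), with mean and SD beside the 3 wt and 3 tulp1-dKO samples. The upper genes do not overlap between groups, and the paralogs below the first 3 of them do, with ndufs8a at 151 and 149 TPM on average; cox4i1 does not overlap and lay just outside the threshold.

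In complex V, none of the 17 nuclear subunits passed the test, and their median log2 fold change was −0.01 (0.04 with quantile normalization, −0.06 with median ratio scaling and −0.05 without *tulp1*-dKO sample 2). The catalytic head genes *atp5fa1* and *atp5f1b*, for the alpha and beta subunits, were at 780.2 ± 73.6 and 911 ± 80.2 TPM in wt larvae and at 793 ± 134 and 962 ± 115 TPM in *tulp1*-dKO larvae. *atp5mf*, for the membrane subunit f, had the smallest p of the complex, at 183 ± 14.0 and 138 ± 10.7 TPM over samples of 179.5, 171 and 199 against 126, 148 and 139 TPM. The groups did not overlap (log2 fold change −0.41, SE 0.09, limma adjusted p = 0.0809). Of the peripheral stalk, which holds the head still, *atp5pf* (coupling factor 6) was at 236, 227 and 237 against 195, 203 and 216 TPM, again without overlap (log2 fold change −0.19, SE 0.07, limma adjusted p = 0.212). The c-ring, the rotor that protons drive, is encoded by 3 measured genes. *atp5mc3b*, the highest of all nuclear members, was at 1181 ± 43.6 and 1171 ± 67.6 TPM and *atp5mc1* at 535 ± 16.3 and 534 ± 21.9 TPM. *atp5mc3a* was at 299, 287 and 312 TPM in wt larvae and at 361, 375 and 323 TPM in *tulp1*-dKO larvae, above wt without overlap (log2 fold change 0.24, SE 0.08, limma adjusted p = 0.189). The copies of the inhibitory factor, which blocks the enzyme when it would run backwards, had log2 fold changes of opposite sign: *atp5if1a* was at 214 ± 3.65 and 235 ± 11.8 TPM (0.14, SE 0.07) and *atp5if1b* at 168 ± 3.76 and 154 ± 21.4 TPM (−0.14, SE 0.10).

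Complexes were then compared by summed level and by genome. The nuclear members together were at 26995, 27059.9 and 27197 TPM in wt larvae and at 25671, 27465 and 25653 TPM in *tulp1*-dKO larvae, a mean difference of −3.03% with overlap, since *tulp1*-dKO sample 2 was the highest of all 6. The log2 ratio of the group means was −0.04, and −0.08 without that sample. Nuclear complex I summed to 7660.4, 7649.7 and 7672 TPM in wt larvae and 7165, 7622 and 7233 TPM in *tulp1*-dKO larvae, without overlap and with a mean difference of −4.19%. Without *ndufs8b* and *NDUFB1* the same sum still differed by −2.90%. It then overlapped (7382 to 7488 and 7057 to 7508 TPM), since *tulp1*-dKO sample 2 was the highest, while samples 1 and 3 stayed below all wt samples. Nuclear complex IV differed by −5.28% (7515 to 7546 and 6828 to 7524 TPM) and, without the 2 genes that fell and *cox4i1*, by −0.744%, with overlap in both. The nuclear sums of complexes II, III and V differed by −1.47%, −3.96% and −0.132%, each with overlap. Of the difference of 821 TPM in the nuclear sum, *cox4i1* made up 20.4%, *cox6b2* 17.99%, *NDUFB1* 12.2%, *COX5B* (5B1) 4.40% and *ndufs8b*, with its low level, 0.617%. These genes were picked for their own differences, so their share describes the sum and tests nothing.

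The ratio of mitochondrially encoded to nuclear-encoded mRNA, which does not depend on the scale of a library, was 2.61, 2.54 and 2.64 in wt and 2.71, 2.69 and 2.67 in *tulp1*-dKO samples. It was higher in all *tulp1*-dKO samples than in all wt samples, by 3.64% on average. Without the members that fell and *cox4i1*, which were picked for being low, the difference was 1.95%. The ratio was then 2.777, 2.701 and 2.795 in wt and 2.828, 2.811 and 2.796 in *tulp1*-dKO samples, so the groups nearly met.

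**Figure D4:**
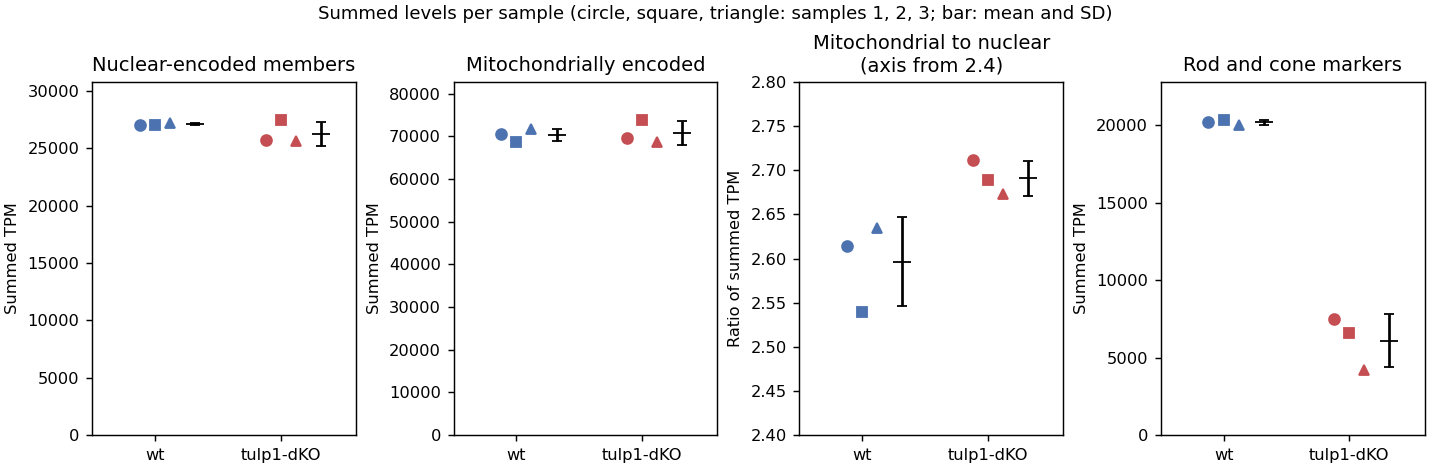
Summed TPM of the 102 nuclear-encoded and the 13 mitochondrially encoded members, the ratio of these sums (axis from 2.4) and the summed rod and cone markers in each of the 3 wt and 3 tulp1-dKO samples, with mean and SD. Both sums of members overlap between the groups, the ratio is 2.54 to 2.64 in wt and 2.67 to 2.71 in tulp1-dKO samples, and the marker sum is 20023 to 20361 TPM in wt larvae and 4167 to 7465 TPM in tulp1-dKO samples.

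Duplicated or tissue forms were compared as 18 pairs within each sample. The ratio of the pair did not overlap between the groups in 7 of them (38.9%). The 23.5% given for all genes is of single genes, and no share over ratios of other gene pairs was computed. Whether 7 is more than other pairs would give is therefore not known. Among these are the pairs of *ndufs8b*, *COX5B* (5B1) and *cox6b2* given above, each of which holds a gene already called lower. The others are *cox5ab* beside *cox5aa* (22.6% ± 0.412 of the pair in wt and 20.8% ± 1.19 in *tulp1*-dKO larvae), *atp5mc3a* beside *atp5mc3b* (20.2% ± 0.535 and 23.2% ± 1.66), *atp5if1b* beside *atp5if1a* (44.1% ± 0.790 and 39.4% ± 2.59) and *sdhda* beside *sdhdb* (1.70% ± 0.394 and 0.961% ± 0.312). An exact two-sided permutation test gave p = 0.1 for each of the 7, the smallest that 3 samples against 3 allow, so no pair could pass 0.05. The shares of *ndufab1a* (44.9% ± 1.67 and 44.9% ± 1.46), *atp5mea* (27.2% ± 0.240 and 27.3% ± 1.21) and *atp5mc1* (31.2% ± 1.13 and 31.3% ± 1.40) in their pairs were close in both groups.

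Other mitochondrial genes were counted from lists chosen by function. Among 14 genes for inner membrane carriers, porins and mitochondrial creatine kinases, which exchange ADP, phosphate and ATP with the cytosol, 12 were lower and 2 higher, and 2 fell. Over all genes tested, 1.22% fell. At an unadjusted p of at most 0.05 from limma, 5 of the 14 were lower and 0 higher, against 6.97% and 10.1% of all genes. *ckmt2b*, a mitochondrial creatine kinase that hands newly made ATP on as phosphocreatine, was at 116, 122 and 127 TPM in wt larvae and at 51.5, 48.4 and 52.5 TPM in *tulp1*-dKO larvae (log2 fold change −1.26, SE 0.08, limma adjusted p = 0.00107, at most 0.0170 over the alternatives). It passed under all 18 alternatives. *slc25a3a*, a phosphate carrier that feeds the ATP synthase, was at 85.8, 92.0 and 99.7 TPM in wt larvae and at 58.3, 47.7 and 41.7 TPM in *tulp1*-dKO larvae (log2 fold change −0.92, SE 0.13, limma adjusted p = 0.0240). Its adjusted p was 0.0828, 0.0818 and 0.0634 without wt samples 1, 2 and 3, 0.0985 without *tulp1*-dKO sample 2, and 0.0629 without the trend in limma. The list summed to 5988 to 6151 TPM in wt larvae and 5328 to 5793 TPM in *tulp1*-dKO larvae, without overlap. Rod and cone, neuron, liver, heart muscle and erythrocyte markers were also mostly lower in these samples, and skeletal muscle and ionocyte markers mostly higher. Any relation of the carrier list to these markers was not tested.

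Of 21 tricarboxylic acid cycle and pyruvate dehydrogenase genes, 13 were higher and 8 lower, and 1 fell, where 1.22% of all genes did. The gene that fell was *pdha1b*, a copy of the pyruvate dehydrogenase E1 alpha gene, at 26.0, 32.6 and 37.4 TPM in wt larvae and 12.9, 9.25 and 4.65 TPM in *tulp1*-dKO larvae (log2 fold change −1.93, SE 0.35, limma adjusted p = 0.0468). Without wt samples 1, 2 or 3 its adjusted p from limma was 0.125, 0.135 and 0.102, and without *tulp1*-dKO sample 2 it was 0.138. It was 0.0563 without a filter on low values, 0.0933 without the trend in limma and 0.0612 with robust moderation. None of 76 mitochondrial ribosomal protein genes passed, with 53 higher, 23 lower and a median log2 fold change of 0.06, and at an unadjusted p of at most 0.05 from limma 3 were higher and 4 lower. At that p, 10.1% of all genes were higher and 6.97% lower. *mrps11*, of the small subunit of the mitochondrial ribosome, had the smallest p of the 76, at 63.8, 55.7 and 72.9 TPM in wt larvae and 36.5, 43.5 and 43.4 TPM in *tulp1*-dKO larvae, without overlap (log2 fold change −0.64, SE 0.13, limma adjusted p = 0.0599). *mrpl14*, of the large subunit, was at 47.5, 55.7 and 54.0 TPM against 67.7, 73.3 and 65.1 TPM, above wt without overlap (log2 fold change 0.39, SE 0.09, limma adjusted p = 0.102). None passed among 14 assembly factors of complex I (10 higher), 26 of complex IV (13 higher), 4 of complex II or 4 of complex V. Of the 14 for complex I, 7 are the members *ndufaf1* to *ndufaf7* already given above. None passed either among 7 genes for other parts of complex III or 13 coenzyme Q synthesis genes (10 higher). The same held for 12 genes of mitochondrial transcription and genome upkeep (7 higher) and 25 of cristae and mitochondrial dynamics (14 higher). Cytochrome c (*cycsb*) was at 428, 413 and 346 TPM in wt larvae and at 385, 431 and 363 TPM in *tulp1*-dKO larvae. Among 11 regulators of mitochondrial biogenesis, none passed the test, with 4 higher and 7 lower. At an unadjusted p of at most 0.05 from limma, 4 of the regulators were lower and 0 higher. The smallest p values there were those of *esrrgb*, an estrogen-related receptor, at 3.39, 4.13 and 2.37 against 1.93, 1.25 and 1.39 TPM (limma adjusted p = 0.121), and of *gabpb1*, a subunit of nuclear respiratory factor 2, at 9.87, 8.21 and 10.7 against 7.05, 5.68 and 4.2 TPM (limma adjusted p = 0.127).

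The closest of the assembly factors to the threshold were *acad9* and *taco1*. *acad9*, which takes part in complex I assembly, was at 15.7, 16.3 and 14.4 TPM in wt larvae and 22.0, 21.2 and 21.1 TPM in *tulp1*-dKO larvae, above wt without overlap (log2 fold change 0.47, SE 0.09, limma adjusted p = 0.0624). *taco1*, the translational activator of *mt-co1*, was at 2.97, 1.97 and 10.1 TPM in wt larvae, and in *tulp1*-dKO samples it was listed at 0, 0.39 and 0 TPM (limma adjusted p = 0.0504). Its limma adjusted p was 0.0494 with median ratio scaling, 0.0499 when rescaled without the mitochondrial genome and 0.0454 with robust moderation, so the call depends on the setting. The wt samples themselves differed by a factor of about 5 for this entry, and a further gene is listed under the same name. Summed over both, the log2 fold change was 0.03 (limma adjusted p = 0.917).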

How the data were processed

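RNA-seq of 6 head samples was analysed, 3 wt and 3 *tulp1*-dKO, grouped by the genotype in the labels. The authors sequenced on the Illumina NovaSeq platform, mapped reads to GRCz11 with HISAT2, counted them with RSEM and deposited the values as TPM per gene. TPM keeps no depth, so the read number behind a value is unknown, and the precision was taken from the spread between samples. Nothing in the labels says that the samples came from separate clutches, so p-values measure only the spread between these samples. Strand handling in counting is not given in the sources used here.

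Values were transformed to log2(TPM + 0.1), and the 22824 genes averaging 0.5 TPM or more entered one linear model with genotype as its only term (limma version 3.58.1 under R 4.3.3, moderated by eBayes with a mean-variance trend). All their p-values were adjusted together by the Benjamini-Hochberg method. Fold changes are on this scale, which understates changes of low genes. The authors' DESeq2 needs counts and was not repeated. The script was tested on simulated data. Python 3.11.15 was used for tables and exact tests (with pandas 2.3.3 and numpy 2.4.6) and for figures (matplotlib 3.10.9). Complexes were assigned by gene name.

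The genes named are the members with an adjusted p of at most 0.05, the 13 mitochondrially encoded genes, for each complex the 3 nuclear members with the smallest p, the highest and lowest fold change and the 3 highest levels, subunits with tissue forms, all *sdh* genes, and from the other mitochondrial lists the genes with an adjusted p of at most 0.05, among which are the 2 with the smallest p over these lists. Marker lists are given by their counts and sums. *ndufs1*, *ndufv1*, *ndufs8a*, *cox5aa*, *cox5ab*, *cox5b2*, *uqcrfs1*, *ndufab1a*, *atp5mea*, *ndufa9b*, *cycsb*, *acad9*, *taco1*, *esrrgb*, *gabpb1*, *mrps11*, *mrpl14* and *actc1a* were added for their role, as copies or for their small p after their values were seen. The members, lists and tests were chosen with earlier results of these data known. Each result was recomputed with a pseudocount of 0.5 or 1, with all genes or those from 2 TPM, after scaling by median ratios, quantiles or totals without the mitochondrial genome or the 50 most abundant genes, with eBayes untrended or robust, with replicate number as a block, leaving out 1 sample at a time, and with same-named entries summed. Ribosomal and transfer RNAs of the mitochondrial genome were not analysed here, and no sequences or coordinates are given because no genome of the authors' build was used.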

Additional observations from a re-analysis of the deposited data

How the results depend on the processing

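Of the 4 members that fell, *ndufs8b* passed under all 18 alternatives. The count of members at an adjusted p of at most 0.05 from limma was 1 without the trend in eBayes and 1 to 3 on leaving out 1 sample at a time, and the members past both thresholds were 1 to 2. It was 3 without a filter on low values and 3 with values summed by name, and 4 under the other scalings, pseudocounts and filters. None of the 54 other named members passed under any alternative. With median ratio scaling, 1 mitochondrially encoded member was higher. The median log2 fold changes were then −0.081 for nuclear and −0.067 for mitochondrially encoded members and −0.087 for nuclear complex I subunits. The log2 ratios of the sums were −0.091 and −0.039. This scaling also moved the median of all genes tested, from 0.051 to 0.004. Left out in turn, the samples gave 2 to 8 mitochondrially encoded members higher, a median of −0.093 to −0.031 for complex I and of −0.083 to 0.059 for complex II.

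Same-numbered samples of the groups deviated together only weakly (correlations of 0.029, 0.031 and 0.032 across genes, against −0.021 to −0.010 for different numbers), and the labels do not say that numbers pair samples. Each sample correlated best with its own number. Deviations were taken from the mean of each group, so the negative values for different numbers follow from the positive ones. Correlations this small do not settle whether samples were paired, which was not tested. With the replicate number as a block, 1 member (*ndufs8b*) and 138 genes in all passed, against 4 and 432 without the block. Of the other genes named as fallen, *ckmt2b* passed with the block, and *slc25a3a* and *pdha1b* did not (limma adjusted p = 0.102 and 0.134).

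Signs turned for 22 of the 58 named members, whose log2 fold changes were at most 0.23 in size, and for *taco1* and *cycsb*. With median ratio scaling the log2 fold change was −0.033 for *atp5fa1*, −0.031 for *ndufb9*, −0.021 for *cox7a2a*, −0.028 for *mt-co2*, −0.017 for *mt-nd3*, −0.043 for *mt-nd4l* and −0.029 for *mt-nd5*. With quantile normalization it was 0.0031 for *atp5mc3b*, 0.024 for *uqcrq*, 0.023 for *cox6c*, 0.052 for *atp5mc1*, −0.043 for *mt-co2*, 0.021 for *mt-nd6* and 0.0071 for *mt-cyb*. Rescaled without the 50 most abundant genes, it was 0.0015 for *cox6c* and 0.0011 for *mt-co3*. With values summed by name it was 0.032 for *taco1*. The cause was not tested. With each sample left out in turn it lay between −0.052 and 0.031 for *atp5mc3b*, −0.11 and 0.13 for *atp5fa1*, −0.082 and 0.49 for *cox6a2*, −0.032 and 0.027 for *atp5mc1*, −0.077 and 0.081 for *ndufa4*, −0.0059 and 0.0098 for *mt-nd4l*, −0.10 and 0.052 for *cycsb* and −0.20 and 0.066 for *sdha*. It then lay between −0.021 and 0.075 for *mt-nd3*, −0.025 and 0.067 for *mt-nd5*, −0.093 and 0.015 for *uqcrq*, −0.029 and 0.025 for *cox6c*, −0.036 and 0.061 for *ndufb9*, −0.037 and 0.073 for *cox7a2a*, −0.025 and 0.067 for *mt-co2* and −0.074 and 0.024 for *mt-atp8*. It then lay between −0.025 and 0.033 for *mt-co3*, −0.086 and 0.057 for *mt-nd6*, −0.086 and 0.024 for *mt-cyb*, −0.068 and 0.14 for *sdhb*, −0.014 and 0.16 for *atp5f1b*, −0.060 and 0.0049 for *mt-nd1* and −0.0093 and 0.50 for *cox8b*.

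With 3 samples a group and no read depth, a difference as small as that of *mt-co1* (log2 fold change 0.13, limma adjusted p = 0.278) was not resolved. The smallest change called among the members was that of *cox6b2* (−0.44), and no limit of detection was estimated. *cox4i1* differed more (log2 fold change −0.39, SE 0.08), but its limma adjusted p was 0.0603 and at least 0.0546 under every alternative.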
